A study of Mus musculus with 16 samples.

Results

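The keratin genes Krt7, Krt8, Krt18 and Krt19, the claudin genes Cldn3, Cldn4, Cldn6 and Cldn7, and the epithelial genes Elf3 and Scel were followed through neuronal differentiation of mouse embryonic stem (ES) cells with and without Taf4a. They are 10 of the 27807 genes in the deposited table, taken by name. The names were chosen by their normalised counts across the 16 libraries, which were known beforehand, so the levels, differences and counts of these 10 genes are a description and carry no test. The 8 groups were wild-type (WT, Taf4+/+) and Taf4a-/- (KO) cells, each as ES cells, as embryoid bodies (aggregates of differentiating cells) at EB4 before retinoic acid, at EB5 after 1 day of retinoic acid, and at EB8 after 4 days, which the labels call neural precursor cells. Each group had 2 poly-A RNA libraries. Taf4 is a subunit of TFIID, the complex that starts transcription at RNA polymerase II promoters, and the comparison asks which genes need it as cells differentiate.

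Per the study's methods, 2 WT and 2 homozygous mutant lines came from blastocysts of heterozygous crosses of C57Bl6J mice, ES cells of both genotypes were grown on inactivated mouse embryonic fibroblast feeders, and the null allele lacks a pair of internal exons. The labels do not say which library came from which line. Libraries held 32631020 to 40711826 reads in ES cells and 22442118 to 27685306 reads in embryoid bodies. The summed Taf4a count was 1591 to 1960 normalised counts in the 8 WT libraries and 1973 to 2400 in the 8 KO libraries. Most of the gene lies outside the deleted exons, so this sum does not check the genotype. The pluripotency factor gene Pou5f1 stood at 27999 to 36606 normalised counts in the 4 ES libraries. At EB8 the neural progenitor gene Pax6 stood at 5447 and 5317 in WT but at 838 and 361 in KO, and the summed level of 7 neural markers was 37693 and 37087 against 5453 and 5152, with 6 of 7 lower in KO by limma. By these markers the KO libraries of EB8 did not match their label of neural precursor cells. The summed level of 8 pluripotency markers at EB8 was 35760 and 38157 in KO against 5620 and 7255 in WT, with 6 of 8 higher in KO. Over all genes tested at EB8, 12.5% were lower and 10.4% higher in KO by limma.

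Keratins are the intermediate filament proteins of epithelial cells. A type II keratin (Krt7, Krt8) pairs with a type I keratin (Krt18, Krt19), and the Krt8 and Krt18 pair is the first to appear in the embryo, in the trophectoderm. Claudins are membrane proteins that seal tight junctions between epithelial cells, and Cldn6 is also a marker of pluripotent and early epithelial cells. Elf3 is an ETS-family transcription factor of epithelia, and Scel encodes sciellin, a protein of the cornified envelope of stratified epithelia.

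The genes lie on 6 chromosomes of NCBI37 (mm9). Krt7 (chr15:101241474-101260744), Krt8 (chr15:101827142-101834773) and Krt18 (chr15:101858647-101862457) share the type II keratin cluster, with Krt8 on the minus strand beside Krt18 on the plus strand. Krt19 (chr11:100002124-100009979) and Cldn7 (chr11:69778281-69781387) lie on chromosome 11, and Cldn3 (chr5:135462084-135463342) and Cldn4 (chr5:135420996-135422804) are neighbours on chromosome 5. Cldn6 (chr17:23816332-23819413), Elf3 (chr1:137150151-137155049) and Scel (chr14:103912558-104012563) lie on chromosomes that hold no other of the 10, and Cldn6 has the claudin gene Cldn9 (chr17:23819552-23820985) beside it. All are annotated as protein-coding.

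The 100 bases before the RefSeq transcription start are shown for 5 of these genes, because Krt7, Krt8 and Krt18 share a gene cluster and varied together across libraries while Cldn4 and Elf3 took another course. They are read 5′ to 3′ on the gene's strand, in build GRCm38.p6, with GGGCGG (Sp1) or AGGAAG (ETS) on either strand in capitals.
Krt7, chr15:101412303-101412402, plus strand: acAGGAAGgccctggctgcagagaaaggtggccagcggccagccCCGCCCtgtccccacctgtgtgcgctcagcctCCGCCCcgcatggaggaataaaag
Krt8, chr15:102004343-102004442, minus strand: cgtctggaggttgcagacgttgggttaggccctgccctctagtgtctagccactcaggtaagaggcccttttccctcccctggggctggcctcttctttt
Krt18, chr15:102028116-102028215, plus strand: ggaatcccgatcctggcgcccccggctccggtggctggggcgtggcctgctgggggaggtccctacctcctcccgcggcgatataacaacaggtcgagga
Cldn4, chr5:134946935-134947034, minus strand: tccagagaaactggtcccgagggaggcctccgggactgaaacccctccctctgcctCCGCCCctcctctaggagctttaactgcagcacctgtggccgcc
Elf3, chr1:135258473-135258572, minus strand: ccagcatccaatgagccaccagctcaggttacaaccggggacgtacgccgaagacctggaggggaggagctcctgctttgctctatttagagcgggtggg
RefSeq windows of 300 bases were found for 9 of the 10 genes (not for Krt19), and Cldn7 had 2 windows. Over both strands, GGGCGG stood in the window of 5 of these 9 genes (Krt7, Cldn3, Cldn4, Cldn6, Cldn7) and in 35.7% of all 32851 windows. AGGAAG, a core ETS sequence, stood in 4 of 9 (Krt7, Krt8, Cldn7, Scel) and in 35.4% of all windows. The AP-1 sequence TGANTCA was found in Cldn4 and Scel and in 7.81% of all windows, TATAAA in Krt8 and in 13.6%, and AACNNGTT, a grainyhead sequence, in none of the 9 and in 4.2%. The windows of Krt18 and Elf3 held none of these sequences.

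In WT, the type II keratin Krt8 stood at 10548 and 4082 normalised counts (reads divided by the library's size factor) in ES cells, 4114 and 8905 at EB4, 4388 and 3523 at EB5 and 7530 and 4795 at EB8. The KO values were 3627 and 1133, 2332 and 2144, 3292 and 2827, and 8370 and 2874 at the same stages. Both KO values were below both WT values up to EB5, and at EB8 one KO library was above and one below both WT libraries. The mean difference between KO and WT on the scale of log2(normalised count + 1) was -1.69 in ES cells, -1.44 at EB4, -0.37 at EB5 and -0.29 at EB8.

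Krt18, the type I partner of Krt8, stood in WT at 5568 and 2726 normalised counts in ES cells, 5826 and 9913 at EB4, 5358 and 3546 at EB5 and 8925 and 5120 at EB8. In KO the values were 2043 and 634, 2604 and 2260, 2703 and 2592, and 8366 and 2863. As for Krt8, KO lay below WT without overlap at the first 3 stages, by 3.42-fold in ES cells, 3.13-fold at EB4 and 1.65-fold at EB5, and overlapped at EB8.

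Krt19, the smallest type I keratin, stood in WT at 1588 and 809 normalised counts in ES cells, 1012 and 2755 at EB4, 1936 and 942 at EB5 and 3436 and 1936 at EB8. Mutant cells held 559 and 174, 679 and 532, 581 and 688, and 3399 and 706. KO was below WT without overlap by 3.63-fold in ES cells, 2.77-fold at EB4 and 2.13-fold at EB5. At EB8 one KO library sat just under the higher WT value and the other below both.

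Krt7, the type II keratin of simple glandular epithelia and trophectoderm, was the least abundant of these 4 keratins per kilobase of transcript in every group. It stood in WT at 312 and 233 normalised counts in ES cells, 130 and 398 at EB4, 250 and 201 at EB5 and 1014 and 566 at EB8. The KO values were 75.5 and 42.2 in ES cells, 112 and 95.7 at EB4, 222 and 235 at EB5, and 2813 and 469 at EB8. The genotypes were apart in ES cells (4.71-fold lower in KO) and at EB4 (2.19-fold lower), level at EB5 (log2 difference 0.02), and at EB8 the 2 KO libraries lay on either side of both WT libraries. From ES cells to EB8 the log2 difference was 4.32 in KO and 1.49 in WT, in both without overlap.

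Cldn3 stood in WT at 124 and 480 normalised counts in ES cells, 863 and 1232 at EB4, 1520 and 1413 at EB5 and 682 and 732 at EB8. The KO libraries gave 128 and 113, 408 and 239, 685 and 649, and 1057 and 226. KO was 3.3-fold lower at EB4 and 2.2-fold lower at EB5, without overlap, and the genotypes overlapped in ES cells and at EB8. In both genotypes each EB5 library was above each ES library.

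Cldn6 stood in WT at 5189 and 3086 normalised counts in ES cells, 6856 and 8065 at EB4, 3824 and 2702 at EB5 and 4550 and 3332 at EB8. In KO the values were 4085 and 1990, 4627 and 2876, 3162 and 2279, and 4103 and 2357. The genotypes were apart only at EB4 among the 4 stages, where KO was 2.04-fold lower. In WT the EB4 libraries lay above those of the other 3 stages, while the KO libraries of the 4 stages overlapped.

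Cldn7 stood in WT at 1582 and 1194 normalised counts in ES cells, 2157 and 2548 at EB4, 932 and 938 at EB5 and 703 and 751 at EB8. The KO levels were 1301 and 602, 1666 and 925, 1227 and 821, and 1545 and 526. In WT both EB5 and EB8 lay below EB4, with a log2 difference of -1.69 from EB4 to EB8, while the KO libraries of those stages overlapped (log2 difference -0.46). KO was 1.89-fold lower at EB4 and overlapped WT at the other stages.

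Cldn4, the neighbour of Cldn3 on the opposite strand, did not share its course. In WT it stood at 4051 and 7489 normalised counts in ES cells, 4039 and 5368 at EB4, 3783 and 3025 at EB5 and 4070 and 3784 at EB8. In KO it stood at 4295 and 3353, 4075 and 5590, 4608 and 7288, and 11495 and 6971. The genotypes overlapped in ES cells and at EB4, and KO was above WT without overlap at EB5 (1.71-fold) and EB8 (2.28-fold).

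Elf3 stood in WT at 672 and 2322 normalised counts in ES cells, 792 and 629 at EB4, 901 and 816 at EB5 and 343 and 427 at EB8. In KO it stood at 1607 and 1570, 2044 and 3081, 3605 and 6490, and 3871 and 2743. The ES groups overlapped, with the 2 WT libraries 1.79 apart on the log2 scale, and KO was above WT without overlap at each later stage. KO was 3.55-fold higher at EB4, 5.63-fold at EB5 and 8.49-fold at EB8, the last with WT at 385 ± 58.9 and KO at 3307 ± 798 normalised counts (SD, n = 2 each).

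Scel was scarce. It gave 15 and 37 reads in WT ES cells, 14 and 95 at WT EB4, 11 and 8 at WT EB5 and 31 and 23 at WT EB8. The KO libraries held 4 and 3, 0 and 1, 1 and 4, and 5 and 4 reads. At each stage both KO libraries lay below both WT libraries, and 5 reads was the highest KO value. Its mean of 16.1 normalised counts passed the filter for testing (a mean of at least 10 over the 16 libraries) through the WT libraries, and no fold change is given for so few reads.

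**Figure D1:**
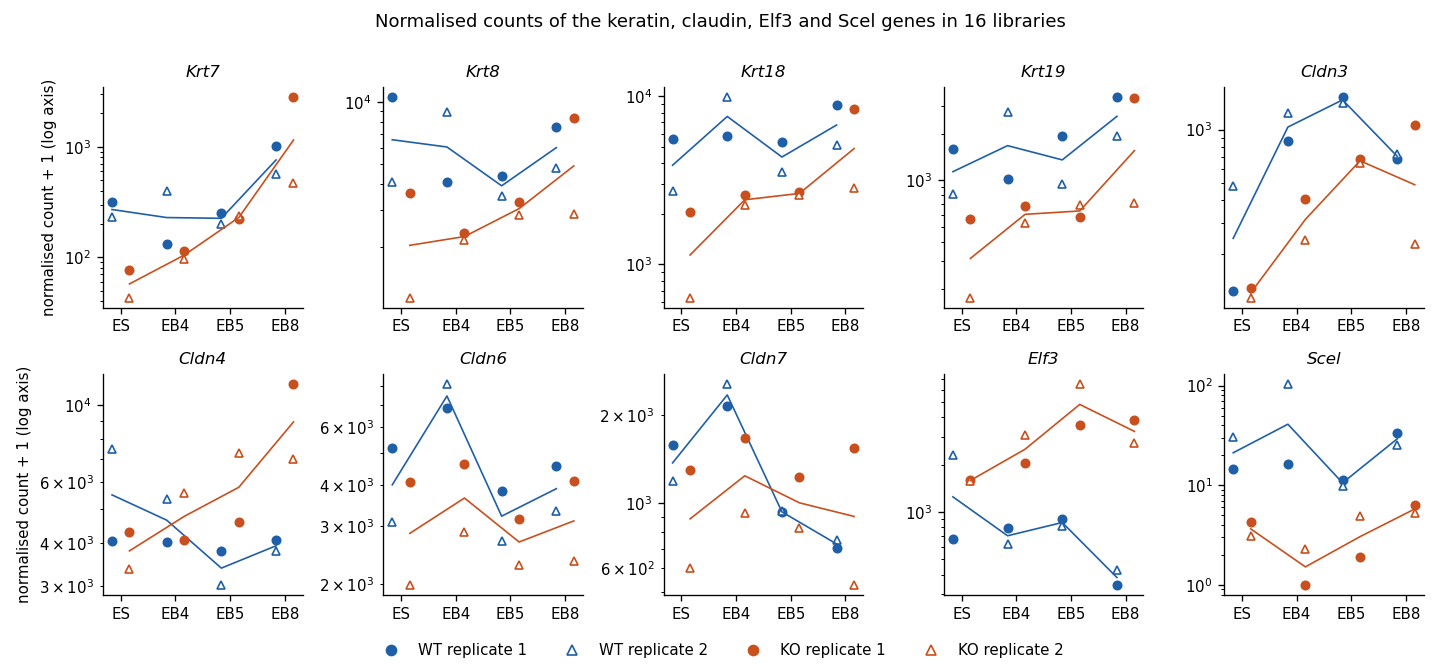
Normalised count plus 1 (log axis, a separate range for each gene) of each gene by stage in WT (blue) and KO (orange). Filled circles are replicate 1, open triangles replicate 2 and lines join the means of the log2 values. Elf3 separated between genotypes after ES cells, reaching 3871 and 2743 in KO at EB8 against 343 and 427 in WT, and the 2 KO libraries of EB8 were far apart for the keratins.

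Counted over the 10 genes, both KO libraries lay below both WT libraries for 5 in ES cells, 8 at EB4, 5 at EB5 and 1 at EB8. Both lay above for 0, 1, 2 and 2 of them. Over all 16124 genes tested, KO lay below WT in 20.7% of genes in ES cells, 26.6% at EB4, 28.1% at EB5 and 33.5% at EB8, and above in 19%, 25.3%, 26.7% and 30.4%. The median log2 difference of the 10 genes was -1.36 in ES cells, -1.28 at EB4, -0.32 at EB5 and -0.30 at EB8, while the median over all genes tested stayed between -0.03 and 0. For the 4 keratins alone the medians were -1.82, -1.46, -0.54 and -0.38. With 1 library left out, a group of 1 is set against a group of 2, and 60.4% to 82.6% of all genes tested then do not overlap. On that footing the ES count was 8 of 10 without WT replicate 1 (all below, 80.6% of all genes), 8 without WT replicate 2 (7 below and Elf3 above, 74.2%) and 9 without KO replicate 1 (all below, 60.4%). The EB8 count of 3 genes became 10 without KO replicate 1 (2 above and 8 below, 82.6% of all genes), 7 without KO replicate 2 (6 above and 1 below, 82.6%) and 6 without WT replicate 2 (2 above and 4 below, 81.1%).

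**Figure D2:**
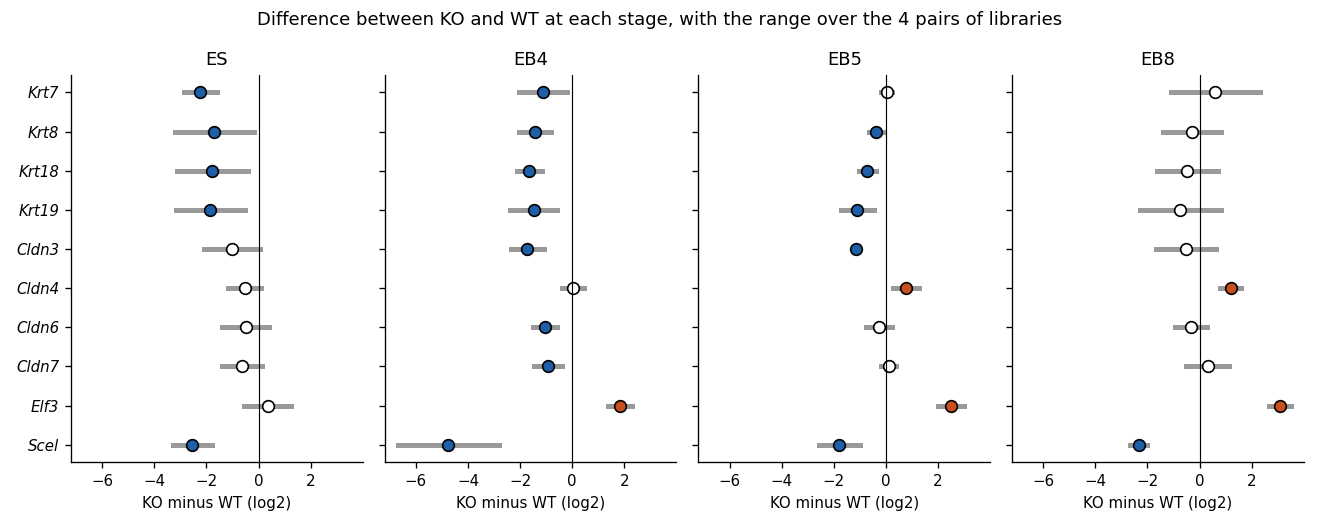
Difference between KO and WT on the scale of log2(normalised count + 1) at each stage. Circles are the difference of means, grey bars the range over the 4 pairs of 1 KO and 1 WT library, and filled circles mark genes whose groups did not overlap (blue, KO lower; orange, KO higher). At EB4, 8 genes lay lower in KO and Elf3 higher; at EB8 the bars of the keratins crossed 0 and Elf3 (3.09) and Cldn4 (1.19) were higher.

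The 2 KO libraries of EB8 differed in these genes more than in the table at large. All 10 genes were higher in replicate 1 than in replicate 2, against 47.8% of all genes tested, and 6 of 10 differed by more than 1 on the log2 scale, against 13.7% of all. The median gap was 1.54 for the 10 genes and 0.32 over all genes. Krt7 (2.58), Krt19 (2.27) and Cldn3 (2.22) had the widest gaps, and Elf3 one of 0.50. In the same pair, 42 of 55 other epithelial genes tested were higher in replicate 1, with a median gap of 0.61. The trophoblast markers moved with them, and all 8 tested were higher in replicate 1. Their sum over 10 genes was 6216 against 2614 normalised counts, of which Tfap2c gave 4289 and 1710, with Hand1 at 600 against 29.8. Tpbpa was listed at 3.2 and 0 and Prl3d1 at 0 in both. Fibroblast markers lay the other way, with 0 of 9 tested higher in replicate 1, 7 of 9 higher in replicate 2 by more than 1, and a sum of 1639 against 4127. The part of either in the keratin levels was not tested. In bulk RNA, fewer cells of a type and less RNA per cell cannot be told apart. The KO ES libraries were ordered the same way, with all 10 genes higher in replicate 1 (53.8% of all genes). Their median gap was 0.94, against 0.25 over all genes. In WT, 6 of 10 were higher in replicate 1 in ES cells, 1 at EB4, 9 at EB5 and 7 at EB8. Over all genes these WT shares were 51.1%, 49.1%, 47.4% and 48.1%. The median WT gaps of the 10 genes were 1.0, 0.64, 0.32 and 0.43, against 0.44, 0.35, 0.33 and 0.3 over all genes. Genes of chromosome 11, where Krt19 and Cldn7 lie, had a median level 0.17 to 0.26 above the mean of all libraries (log2) in the 4 libraries of KO replicate 1 and between -0.13 and 0.05 in the other 12, and the share of this in the gaps of Krt19 and Cldn7 was not tested.

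Sums of cell markers also differed between genotypes where the keratins were lower. In ES cells the summed level of 12 fibroblast markers, which feeder cells express, was 1140 and 2801 in WT against 243 and 575 in KO, with Col1a1 at 662 and 1451 against 119 and 170. That of 12 primitive and visceral endoderm markers was 785 and 553 in WT ES cells against 258 and 449 in KO, and 1260 and 1970 at WT EB4 against 787 and 413 at KO EB4. Of the 9 endoderm markers tested, Cubn (log2 difference -4.24, adjusted p = 0.0147) and Dab2 (-2.30, adjusted p = 0.0222) were lower in KO at EB4 by limma, and Gata6, Afp, Ttr and Apoa1 were each at 76 normalised counts or less in all 4 libraries. No fibroblast marker of 9 tested passed in ES cells. At EB4 the 8 pluripotency markers summed to 76811 and 105154 in KO against 45975 and 30245 in WT, with 4 of 8 higher in KO. The 7 neural markers summed to 6845 and 5278 in KO against 12349 and 11285 in WT, with 1 higher and 1 lower in KO. Over all genes tested at EB4, 2.75% were higher and 3.37% lower in KO. Summed trophoblast markers lay the other way from the keratins, at 5154 and 4084 at KO EB4 against 1853 and 2507 at WT EB4. At EB5 the sums were 6749 and 5824 in KO against 1365 and 2360 in WT. Tfap2c alone gave 2699 and 3051 of the sums at KO EB4 and 751 and 1144 at WT EB4. At EB5 it gave 5606 and 4973 in KO and 894 and 1586 in WT. Eomes gave 2158 and 741 at KO EB4 and 1002 and 1064 at WT EB4, which overlap. Cdx2 (18.7 and 7.7 in KO, 0 and 32.2 in WT) and Gata3 (88.8 and 121 in KO, 16.4 and 162 in WT) overlapped at EB4 too. Of the 8 trophoblast markers tested, 0 passed at EB4 and 1 (Tfap2c, higher in KO) at EB5, where 2.17% of all genes were higher in KO. Whether cells of any of these types were present, or carried part of the keratin difference, was not tested.

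Within a library, ratios between these genes are free of the scaling between libraries. Summed per kilobase of transcript, the type II keratins Krt7 and Krt8 stood at 0.942 to 1.19 times the type I keratins Krt18 and Krt19 in the 4 ES libraries and at 0.481 to 0.817 times in the 12 embryoid body libraries. ES and embryoid body libraries therefore did not overlap in this ratio, in either genotype. At EB5 the ratio was 0.493 and 0.639 in WT and 0.817 and 0.71 in KO, and at EB8 0.517 and 0.572 in WT and 0.655 and 0.685 in KO. The 4 keratins made up 93.3% to 99.1% of the counts of 47 keratin genes in embryoid bodies and 94.2%, 84.3%, 73.5% and 49.9% in WT ES replicates 1 and 2 and KO ES replicates 1 and 2. The 4 claudins made up 54.9% to 85% of the counts of 26 claudin genes. Among these 4, Cldn4 took 40.7% and 44% of counts at WT EB8 and 63.2% and 69.2% at KO EB8, and Cldn6 took 45.5% and 38.8% against 22.5% and 23.4%. The ratio of Elf3 to Krt8 counts was 0.0456 and 0.089 at WT EB8 and 0.462 and 0.954 at KO EB8, and KO lay above WT without overlap in this ratio at EB4, EB5 and EB8.

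**Figure D3:**
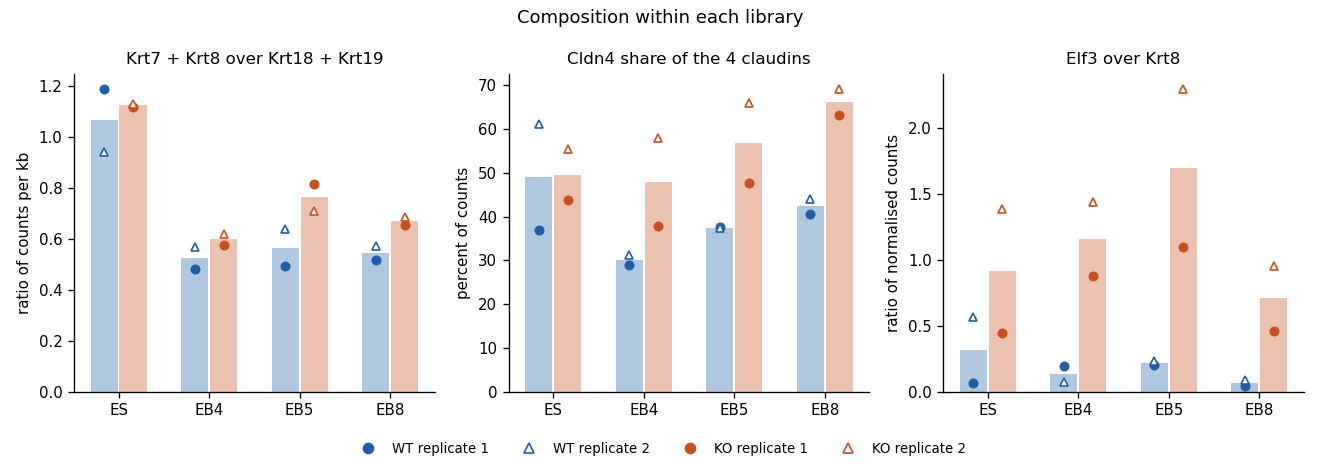
Ratios within each library by stage in WT (blue) and KO (orange). Left, type II (Krt7 and Krt8) over type I (Krt18 and Krt19) keratin counts per kilobase; middle, Cldn4 as a percent of the counts of the 4 claudins; right, Elf3 over Krt8 normalised counts. Bars are the mean of 2 libraries, filled circles replicate 1 and open triangles replicate 2. The keratin ratio was 0.942 to 1.19 in ES cells and 0.481 to 0.817 later, and the Cldn4 share reached 63.2% and 69.2% at KO EB8.

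Over the 16 libraries, the log2 levels of Krt18 and Krt19 had a Pearson r of 0.97, Krt8 and Krt18 0.90, Krt7 and Krt19 0.84, and Cldn6 and Cldn7 0.83. Cldn4 was most like Elf3 (0.65). Elf3 was least like 8 of the other genes and had an r of -0.46 with Krt8 and -0.66 with Scel. These libraries share genotype, stage and scaling, so the values describe the pattern and are not tests. Of the other genes tested, the 5 most like the mean of the 10 scaled genes were Ilk (0.89), Sept4 (0.89), Sertad2 (0.87), 9430020K01Rik (0.83) and Ndfip2 (0.83). Sept4 stood at 66.4 to 462 normalised counts in the 8 WT libraries and 10.7 to 203 in the 8 KO libraries.

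Between stages, the median log2 difference of the 10 genes from ES cells to EB4 was 0.66 in WT and 0.57 in KO, from EB4 to EB5 -0.54 and 0.36, and from EB5 to EB8 0.44 and 0.66. The difference between genotypes in these steps was not tested. From ES cells to EB4 in WT, 4 genes (Krt18, Cldn3, Cldn6 and Cldn7) lay above their ES libraries without overlap and 0 below, beside 26.5% and 27.6% of all genes tested. In KO, 4 lay above (Krt7, Krt18, Cldn3 and Elf3) and Scel below, beside 28.1% and 28.2%. After the first day of retinoic acid, 5 of 10 (Krt18, Cldn4, Cldn6, Cldn7 and Scel) lay below EB4 in WT and 2 above, beside 20% and 21.8% of all genes. In KO over the same day, 0 lay below and 4 above, namely Krt7, Krt8, Cldn3 and Elf3, beside 24.2% and 25.9%. From EB5 to EB8, 5 lay above and 3 below in WT (28.6% and 26.1% of all genes), and 4 above and 0 below in KO (22.3% and 23.5%). Krt7, Krt19 and Scel lay above EB5 in both genotypes at this step, and Cldn3, Cldn7 and Elf3 lay below it in WT. In WT, Krt19 and Cldn4 were counted as above EB5 by near ties. Their lower EB8 and higher EB5 values were 1936.5 against 1935.6 for Krt19 and 3784.1 against 3782.8 for Cldn4. For Krt19 in KO these values were 706.3 against 687.5. Scel in KO was placed on few reads here, 1 and 4 at EB5 against 5 and 4 at EB8. Its lower place at KO EB4 than in KO ES cells rested on 0 and 1 reads against 4 and 3.

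Per kilobase of transcript, the order of the mean levels in WT EB4 was Krt18 at 5621 ± 2064 normalised counts (SD, n = 2), Cldn6 at 4954 ± 567, Krt8 at 3607 ± 1877, Cldn4 at 2600 ± 520, Cldn7 at 1762 ± 207, Krt19 at 1195 ± 782, Cldn3 at 832 ± 208, Elf3 at 355 ± 57.6, Krt7 at 64.5 ± 46.2 and Scel at 19.2 ± 20. Neighbours in this order lay within the larger of their SDs from Krt18 through Cldn6 and Krt8 to Cldn4, again from Cldn7 through Krt19 to Cldn3, and between Krt7 and Scel. In KO EB8 the order was led by Cldn4 at 5104 ± 1768, Krt18 at 4010 ± 2779 and Krt8 at 3115 ± 2153, which were not separated by their spread. Elf3 stood at 1654 ± 399 there, within the larger SD of its neighbours Cldn6 (2145 ± 820) and Krt19 (1303 ± 1208). In WT EB8 it stood level with Krt7 and above Scel alone, at 193 ± 29.5 against 193 ± 77.4 for Krt7. This rests on transcript lengths of 4094 bases for Krt7 and 2000 for Elf3. Before division by length, Krt7 stood at 790 normalised counts and Elf3 at 385.

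The other genes of epithelial junctions and their regulators were counted in lists that leave out the 10 genes: 66 genes, of which 55 were tested by limma across all genes. They comprise other keratins (4 of 10 tested), other claudins (7 of 10), tight junction partners (12 of 12), adherens junction and desmosome genes (12 of 13), and epithelial regulators and proteases (20 of 21). These lists were chosen with earlier results of these data known, so their counts beside the share of all genes are not independent of the data. The median log2 difference of the 55 between KO and WT was -0.24 in ES cells, -0.28 at EB4, 0.12 at EB5 and 0.39 at EB8. In ES cells 0 of 55 differed between genotypes after adjustment (0 of 16124 genes did, 0%). At an unadjusted p under 0.05 there were 13 of 55 and 1846 of all genes, edgeR called 0 of 55, and DESeq2 called 4, all lower in KO (Gata3, Dsc2, Krt20, Inadl). The adherens junction genes Cdh1, which encodes E-cadherin, and Epcam had overlapping libraries. Cdh1 stood at 21702 and 17426 normalised counts in WT ES cells against 17594 and 15404 in KO, and Epcam at 9765 and 7930 against 8748 and 7739.

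At EB4, 7 of 55 passed the threshold (12.7%, against 6.12% of all genes), 2 higher and 5 lower in KO (2.75% and 3.37% of all genes). The lower genes were the tight junction genes Marveld2 (tricellulin, log2 difference -1.64 ± 0.41 SE, adjusted p = 0.0396), Ocln (occludin, -1.39 ± 0.36, adjusted p = 0.0447) and Inadl (a scaffold of the apical Crumbs complex, -0.78 ± 0.18, adjusted p = 0.0319), the desmosomal cadherin Dsc2 (-1.67 ± 0.40, adjusted p = 0.0326) and the protease inhibitor Spint1 (-1.04 ± 0.24, adjusted p = 0.0279). The higher genes were the grainyhead factors Grhl3 (1.59 ± 0.29, adjusted p = 0.0131) and Grhl2 (0.82 ± 0.21, adjusted p = 0.0422). For Ocln the normalised counts were 923 and 1400 in WT against 547 and 345 in KO. The tight junction scaffold Tjp1 (ZO-1) stood at 12274 and 14956 in WT against 9860 and 10037 in KO and did not pass (adjusted p = 0.126). This count rested on single libraries: it was 2 without either WT library and 0 without KO replicate 2, and fitted on the 4 EB4 libraries alone it was 0. The calls over all genes went the same way, from 986 to 337 and 324 without WT replicates 1 and 2, 0 without KO replicate 2 and 0 on the 4 libraries alone.

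At EB5, 3 of 55 passed, all higher in KO and all epithelial regulators (5.45%, against 4.34% of all genes, 2.17% in this direction). They were Tfap2c (AP-2 gamma, a factor of trophoblast and germ cells, 2.15 ± 0.52, adjusted p = 0.0401), Grhl3 (1.76 ± 0.29, adjusted p = 0.0128) and Grhl1 (1.24 ± 0.31, adjusted p = 0.0446). Without WT replicate 1 the count was 1, and without WT replicate 2 or KO replicate 2 it was 0. Over all genes the 700 calls became 234, 39 and 0 in the same order. By edgeR it was 1, Grhl3.

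At EB8, 9 of 55 passed (16.4%, against 22.9% of all genes), and the 9 were all higher in KO, where 10.4% of all genes were. Tfap2c stood at 4289 and 1710 normalised counts in KO against 158 and 361 in WT (log2 difference 3.50 ± 0.52 SE, adjusted p = 0.000717). Grhl3 stood at 843 and 868 against 95 and 157 (2.80 ± 0.29, adjusted p = 9.18e-05), and Grhl1 at 561 and 339 against 83 and 85 (2.37 ± 0.31, adjusted p = 0.000351). These 3 factors bind the promoters and enhancers of epithelial genes. Junction genes that passed included Cgnl1 (paracingulin, 1.38 ± 0.37, adjusted p = 0.0191), Pkp3 (plakophilin 3, 1.37 ± 0.36, adjusted p = 0.0165) and Dsc2 (1.33 ± 0.40, adjusted p = 0.0301). The factor gene Klf5 (1.13 ± 0.28, adjusted p = 0.0132) and the protease gene St14 (0.72 ± 0.20, adjusted p = 0.0208) passed as well. Without WT replicate 2 the count was 4, and without KO replicate 1 it was 4, of which Grhl2 was lower in KO, beside 1885 and 2089 of the 3697 calls over all genes. Markers of trophoblast moved in the same direction, with 4 of 8 tested higher in KO (Eomes, Tfap2c, Gcm1 and Ascl2). The sum over the 10 markers was 6216 and 2614 in KO against 658 and 1267 in WT. Tfap2c gave 4289 and 1710 of the KO sums and 158 and 361 of the WT sums. Of the 10 trophoblast markers, 4 (Cdx2, Elf5, Gata3 and Tfap2c) are also in the epithelial lists. Whether trophoblast cells were present, or had a part in the list, was not tested. The 6 markers of surface ectoderm and epidermis, all in the epithelial lists too, summed to 337 and 219 in KO and 322 and 311 in WT, and 0 of 4 tested passed. Cdx2, a factor of trophectoderm, stood at 144 and 59 in KO against 32 and 46 in WT (adjusted p = 0.511), and Gata3 at 363 and 305 against 355 and 587 (adjusted p = 0.723).

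Several general epithelial genes did not pass between genotypes at EB8. E-cadherin transcripts of Cdh1 numbered 9823 and 3749 (normalised) in the WT pair, around the KO pair of 8145 and 8905 (adjusted p = 0.505). Its gene lies on chromosome 8 (chr8:109127251-109194146). Genes of this chromosome had a median level 0.38 to 0.40 above the mean of all libraries (log2) in the embryoid body libraries of WT replicate 1. That replicate had the higher Cdh1 value in each WT embryoid body pair, by 0.97 to 1.52 on the log2 scale. The share of the chromosome level in this gap was not tested. Epcam stood at 2874 and 2729 in WT against 4521 and 2994 in KO (adjusted p = 0.177). The splicing factor gene Esrp1 (adjusted p = 0.85) and Ovol2, a repressor of mesenchymal genes (adjusted p = 0.204), did not pass either.

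From EB4 to EB8 in WT, 34 of 55 listed genes passed (61.8%, against 27.2% of all genes), 9 rising and 25 falling (15% and 12.2% of all genes), with a median log2 change of -0.85 over the 55 and -0.01 over all genes. The fall took in 8 of 12 tight junction partners, with Marveld3 at -2.49 ± 0.44 (adjusted p = 0.00143), Crb3 at -2.28 ± 0.37 (adjusted p = 0.000765) and Cgn at -1.76 ± 0.31 (adjusted p = 0.00142), and also Tjp1 (-0.60 ± 0.16, adjusted p = 0.0166). Of the adhesion genes Cdh1 fell by 2.28 ± 0.48 (adjusted p = 0.00424), Epcam by 1.89 ± 0.20 (adjusted p = 3.54e-05) and Pkp2 by 1.44 ± 0.39 (adjusted p = 0.0171). Esrp1 fell by 1.79 ± 0.34 (adjusted p = 0.00217) and Ovol2 by 1.30 ± 0.40 (adjusted p = 0.0292). The rising genes included Krt15, Krt20, Cldn5, Cldn8 and Cldn11, all scarce at EB4, with Krt20 at 3.3 and 7.5 normalised counts at EB4 and 262 and 66 at EB8. Trp63, Elf5 and Tfap2a, factors of stratified and trophoblast epithelia, rose as well. Over the same interval in WT, the mean log2 differences of Krt8 and Krt18 were -0.01 and -0.17 with overlapping libraries, and Krt7 lay higher by 1.73 without overlap. The count of 34 became 21 without WT EB8 replicate 2 and 22 without WT EB8 replicate 1, beside 2507 and 3090 for the 4392 calls over all genes. Other cell markers moved over this interval in WT: 7 of 8 pluripotency markers fell (median log2 change -2.96) and 6 of 7 neural markers rose (4.93), and their part in the change of the epithelial genes was not tested.

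In KO from EB4 to EB8, 13 of 55 passed (23.6%, against 18.5% of all genes), 8 rising and 5 falling (9.86% and 8.67% of all genes), and the median log2 change was 0.33 over the 55 and 0.01 over all genes. None of the 12 tight junction partners passed. The falling genes were Rab25 (-2.64 ± 0.50, adjusted p = 0.00399), Grhl2 (-2.41 ± 0.21, adjusted p = 3.66e-05), Esrp1 (-1.58 ± 0.34, adjusted p = 0.00853), Epcam (-1.22 ± 0.20, adjusted p = 0.00195) and Jup. Krt20 (5.82 ± 0.70, adjusted p = 0.000255), Krt15 (3.64 ± 0.86, adjusted p = 0.0133), Dsc2 (2.37 ± 0.40, adjusted p = 0.00221) and the desmosomal plaque gene Ppl (1.96 ± 0.50, adjusted p = 0.0184) were among the rising genes. Without KO EB4 replicate 1 the count was 8, and without KO EB4 replicate 2 it was 6, beside 1643 and 1297 for the 2988 calls over all genes. The difference between the genotypes in this change passed for 6 of 55 (10.9%, against 2.75% of all genes), 5 with a higher change in KO (1.04% of all genes) and Grhl2 with a lower one (1.71%). The count was 0 when WT EB4 replicate 2, WT EB8 replicate 2 or KO EB4 replicate 2 was left out and 1 to 3 without another of the 8 libraries, while the 444 calls over all genes became 112 to 303. The EB4 and EB8 libraries of WT and KO that give this difference are the same as those compared at EB4 and at EB8, so the counts are not independent. The change in Cdh1 did not differ past the threshold (difference 1.06 ± 0.68, adjusted p = 0.493).

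**Figure D4:**
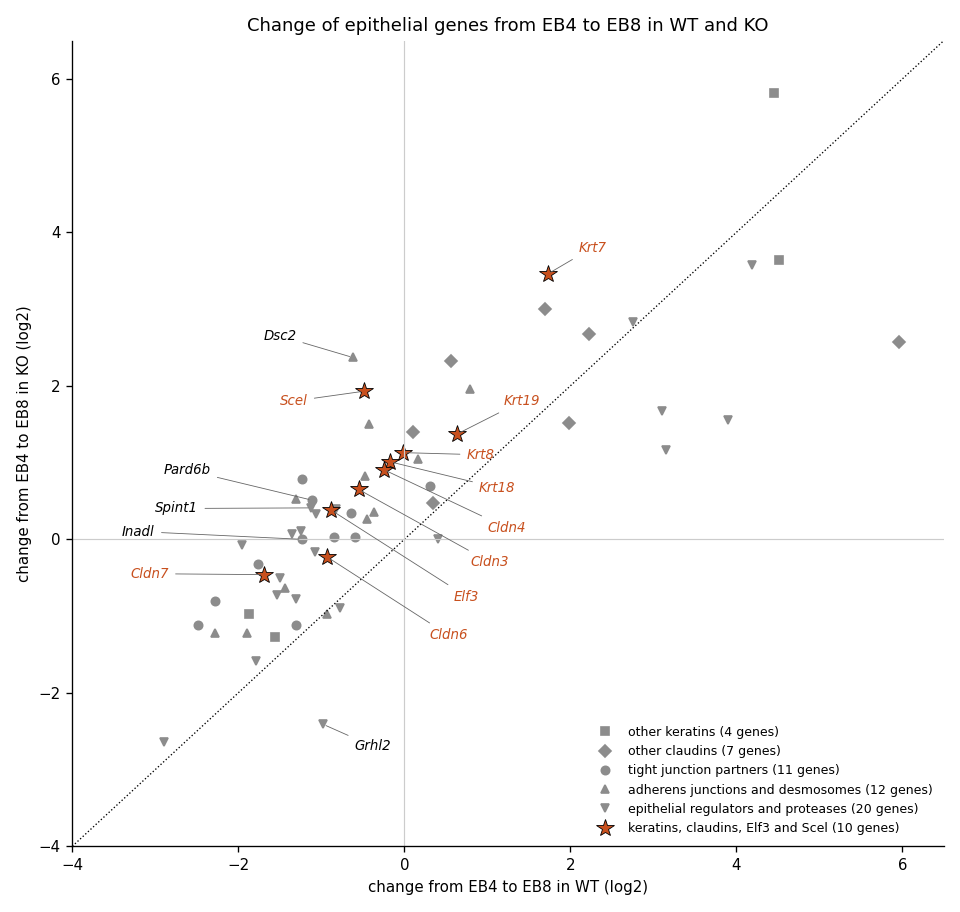
Change from EB4 to EB8 on the log2 scale in WT (horizontal) and KO (vertical) for the 10 genes (stars) and 54 listed epithelial genes (grey, a shape for each list). The dotted line marks equal change, and names in black mark 5 listed genes whose change differed between genotypes. Among the stars, Krt7 lies at 1.73 in WT and 3.46 in KO and Cldn7 at -1.69 and -0.46, with no test. Both KO libraries already lay below both WT libraries at EB4 for 8 of the 10 genes, beside 26.6% of all genes tested.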

How the data were processed

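Normalised counts for 16 libraries (8 groups of 2) were used as deposited. Per the study's methods and the submitters' processing notes, the authors mapped single-end reads to mm9 with TopHat2 2.0.10, counted reads per gene with HTSeq 0.5.4p3 and divided the counts by DESeq2 1.0.19 size factors, so the deposited unit is a signal of normalised counts. Every value was a whole multiple of its library's step (0.7147 to 1.2761) within 0.01, which gave back the reads. Replicates came from 2 lines per genotype, and p-values measure the spread between these libraries.

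The main test was limma 3.58.1 (R 4.3.3, trend) on log2(normalised count + 1) for 16124 genes with a mean of at least 10, with 1 mean per group over all 16 libraries, Benjamini-Hochberg adjustment over all genes tested and a threshold of 0.05; fold changes on this scale understate those of low genes. Scripts were tested on simulated data. Alternatives were other pseudocounts, filters and scalings, the compared groups alone, the replicate number as a block, each library left out, and edgeR 4.0.16 and DESeq2 1.42.0 on the recovered reads. The protocol does not mark strand. Krt8 and Krt18 have processed pseudogenes, and Krt14 and Krt17 are close paralogues, so their counts are uncertain where reads were shared. Positions come from GENCODE M1 (27603 of 27807 identifiers found) and promoters from RefSeq GRCm38.p6. Lengths are those of the longest protein-coding transcript. Values after ± are the SD of 2 libraries where marked SD and otherwise the SE of limma, both taken from the spread between libraries. The floor of 3 reads covers counting error only.

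The 10 genes and all lists were chosen with earlier results of these data known. All 10 are given in every library. Of each epithelial list and comparison, up to 3 genes with the largest difference past the threshold are named, and Cdh1, Epcam, Grhl2, Ovol2, Esrp1, Tjp1, Ocln, Cdx2, Gata3 and Tfap2c in any case. 1 listed gene enters the counts and is not reported here by name. Other listed genes are named to illustrate counts and were chosen after their values were seen. Marker lists were trophoblast (10 genes), primitive and visceral endoderm (12), surface ectoderm and epidermis (6), fibroblast (12), pluripotent (8) and neural (7 of 9 found by name).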

Additional observations from a re-analysis of the deposited data

Results flagged for a closer look

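For 5 listed epithelial genes given here the change from EB4 to EB8 differed between genotypes by the interaction term of limma, fitted on 2 libraries per group. Dsc2 changed by -0.62 in WT and 2.37 in KO on the log2 scale, a difference of 3.00 ± 0.56 SE (adjusted p = 0.0168). The polarity gene Pard6b differed by 1.62 ± 0.38 (adjusted p = 0.0432), Spint1 by 1.53 ± 0.34 (adjusted p = 0.0322) and Inadl by 1.23 ± 0.26 (adjusted p = 0.0267), with changes in WT of -1.11, -1.12 and -1.23 and in KO of 0.51, 0.41 and 0.00. Grhl2 went the other way, falling by 0.98 in WT and by 2.41 in KO (difference -1.43 ± 0.30, adjusted p = 0.0259). Leaving out 1 library left 0 to 3 listed genes past the threshold.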

How the results depend on the processing

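Of the listed epithelial genes, the count past the threshold in ES cells was 0 by limma and 4 by DESeq2. At EB4 (7 genes) it was 3 with no filter, 4 with quantile normalisation, 0 with the compared groups alone and 18 by DESeq2; at EB5 (3 genes) 1 with no filter, 1 by edgeR and 7 by DESeq2; at EB8 (9 genes) 16 with quantile normalisation, 15 with upper-quartile rescaling and 14 by DESeq2. For the difference in change it was 0 with the compared groups alone and 12 by DESeq2. The cause was not tested. Upper-quartile rescaling moved the median of all genes at EB8 to 0.111, and the higher and lower calls over all genes from 1677 and 2020 to 2278 and 1615; quantile normalisation gave 2216 and 1854. At ES, all-gene calls were 0 by limma and edgeR and 476 by DESeq2.

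Leaving out each library gave counts of 0 at ES, 0 to 5 at EB4, 0 to 2 at EB5, 4 to 10 at EB8, 21 to 26 for the WT change (fewest without WT EB8 replicate 2), 6 to 9 for the KO change (fewest without KO EB4 replicate 2) and 0 to 3 for the difference in change (0 without WT EB4 replicate 2, WT EB8 replicate 2 or KO EB4 replicate 2). The number of the 10 keratin, claudin, Elf3 and Scel genes without overlap was 5 to 9 at ES, 9 to 10 at EB4, 8 to 9 at EB5 and 3 to 10 at EB8, where 60.4% to 80.6%, 71.4% to 77.9%, 70.8% to 82% and 81.1% to 82.6% of all genes tested did not overlap.

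With the replicate block the count was 13 at EB4 and 11 for the difference in change, and no other count moved by over 1.5 times. The labels do not say that a number marks a shared line, and the deviations of same-numbered WT and KO libraries had a correlation of 0.335 at ES, -0.058 at EB4, -0.209 at EB5 and -0.133 at EB8, while those of the EB4 and EB8 libraries had one of 0.523 in WT and 0.373 in KO. With 2 libraries a group this is a hint from the data, not the design, and the numbers were not taken as pairing the samples. Same-numbered libraries also shared the chromosome 8 level (WT embryoid bodies) and chromosome 11 level (KO) given above. Chromosome X stood at 0.37 to 0.56 on the same scale in the libraries of KO replicate 2 and at -0.26 to -0.16 in those of KO replicate 1. In WT it stood at 0.49 in ES replicate 2 and at -0.27 to -0.16 in the other libraries. The cause of these levels was not tested. The block gave 37 for the WT change and 18 for the KO change. With the numbers crossed, an alternative chosen after seeing the data, the count was 4 at EB5 and 13 at EB8. Without chromosomes 8, 11 and X, also chosen after seeing the data, it was 10 at EB8.

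Single genes below the threshold changed direction in 17 cases, 15 of them with 1 library left out. Over the libraries left out in turn, the log2 difference at EB4 ran from -1.35 to 3.71 for Cdx2, from -0.64 to 2.59 for Gata3 and from -0.21 to 0.65 for Ovol2 (-0.16 without KO replicate 1). Cdx2 at EB4 was also -0.28 by edgeR and -0.29 by DESeq2. Cdh1 ran from -0.53 to 0.99 at EB5 and from -0.21 to 1.18 at EB8. Esrp1 ran from -0.28 to 0.52 at EB5 (-0.07 without WT replicate 2), from -0.46 to 0.68 at EB8 and from -0.14 to 0.5 at ES. At ES, Cdx2 ran from -1.55 to 0.51, Epcam from -0.25 to 0.05, Grhl2 from -0.06 to 0.29 and Tfap2c from -0.79 to 0.59 (0.12 without KO replicate 2).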

Other observations

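Among the keratins outside the 10 genes, Krt17 fell after ES cells. It is described here because its values had been seen. It stood at 327 and 425 normalised counts in WT ES cells and 931 and 776 in KO ES cells, and at 2.2 to 95.7 in the 12 embryoid body libraries. With Krt14 (37.3 and 15.9 in WT ES cells, 5.8 and 10 in KO), a close paralogue, it shares sequence, so reads could be split between them. Krt17 lay higher in KO than in WT ES cells without overlap (log2 difference 1.19 ± 0.61 SE) but did not pass (limma adjusted p = 0.49), and Krt14 was too scarce to be tested. Krt13, also too scarce to be tested, had a like course. It stood at 10.9 and 1.6 in WT ES cells, 14.1 and 31.4 in KO ES cells and 3.2 or less in embryoid bodies.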
